A study of Saccharomyces cerevisiae with 5 samples.

Results

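The 8 genes described here make and take up inositol, make phosphatidylcholine and phosphatidylserine, or control those genes in budding yeast (Saccharomyces cerevisiae). They were chosen by name (INO1, ITR1, CHO1, CHO2, OPI3, INO2, INO4 and OPI1), and each matched 1 spot by its open reading frame (ORF), among 6205 ORFs on the arrays. In each of 5 two-colour arrays, RNA from cells kept for 1 hour in YP (a rich medium) with 20% glucose was set against RNA from cells kept for 1 hour in YP with 2% glucose. Both kinds of cells came from overnight YP cultures with 2% glucose, and no strain is named in the labels. RNA of the 20% medium carried Cy3 on arrays 1, 3 and 4 and Cy5 on arrays 2 and 5.

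Inositol is the head group of phosphatidylinositol, and yeast either makes it from glucose phosphate or imports it. Phosphatidylcholine is made from phosphatidylserine, which is decarboxylated to phosphatidylethanolamine and then methylated, or from free choline by the Kennedy pathway. Many of these genes carry a promoter element bound by the Ino2-Ino4 activator pair. Opi1 represses them when inositol is plentiful, and is held outside the nucleus, at the endoplasmic reticulum, by phosphatidic acid and the membrane protein Scs2 when it is scarce.

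All values are log2 ratios with RNA labelled 20% glucose on top and RNA labelled 2% below, so that a negative value is lower under the 20% label. This direction follows the dye labels, and on arrays 1 to 3 also the assumption that their columns run like those of arrays 4 and 5. It goes against well-known responses. GPD1, the glycerol phosphate dehydrogenase induced by osmotic stress, lay between -6.88 and -1.78 on the 5 arrays, and HXT1, the hexose transporter induced by high glucose, between -3.70 and -1.95. HXT2, a transporter repressed by high glucose, lay between 1.54 and 2.63. Were the 2 dyes of each array labelled the wrong way round, all signs given here would turn. Across all genes the ratios of arrays 1 to 3 correlated with each other at 0.60 to 0.86, those of arrays 4 and 5 at 0.95, and the 2 sets of arrays with each other at 0.26 to 0.37. The labels do not say whether arrays come from separate cultures, so the p-values cover no more than array-to-array spread, part or all of which may be technical. Fewer cells of a kind and less RNA per cell cannot be told apart in such bulk RNA.

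Over the 5 arrays 0 of the 7 genes that could be tested passed an adjusted p of 0.05 in limma, where 3.69% of 5447 genes did, and 1 of the 7, CHO2, had an unadjusted p under 0.05, where 28.5% of all genes did. CHO1 had values on 3 arrays and was not in this test. The median estimate of the 7 genes was -0.08, with 2 positive and 5 negative, against 0.00 for all genes. The 8 genes did not move as 1 group. INO1 was higher under the 20% label on 3 of its 4 arrays, and CHO2 was lower on 5 of 5. OPI1 was lower on arrays 1 to 3 and near 0 on arrays 4 and 5 (-0.02 and -0.04, with scanner ratios of 0.04 and -0.01). INO4 stayed close to 0, at 0.03 and -0.05 on arrays 4 and 5, with scanner ratios of -0.14 and -0.19.

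**Figure D1:**
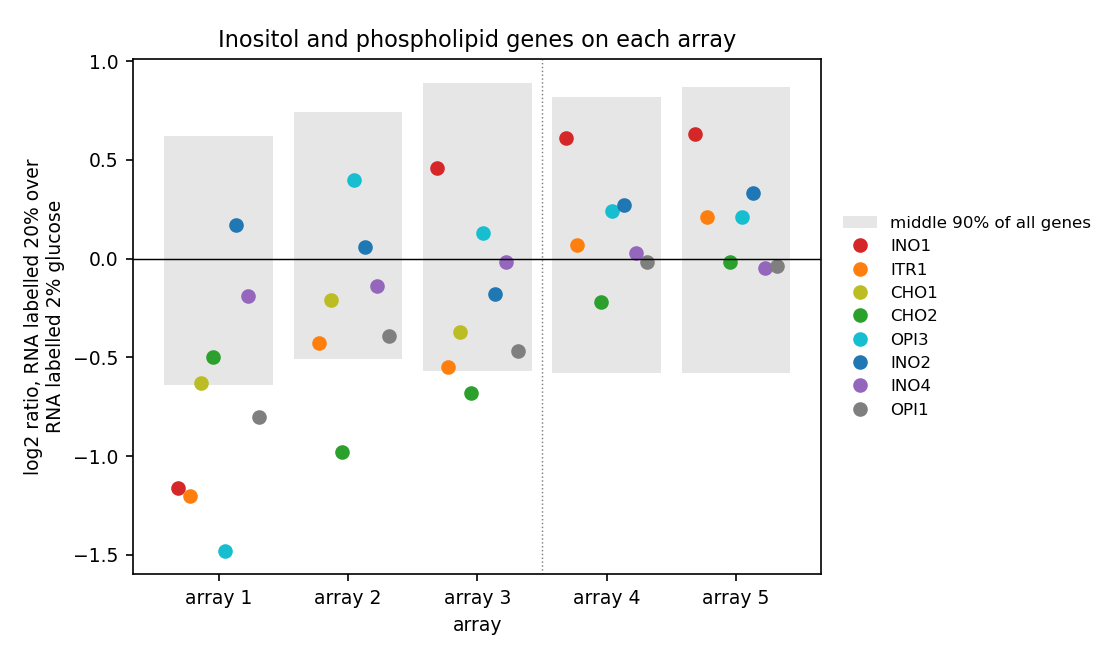
Log2 ratio (RNA labelled 20% over RNA labelled 2% glucose, vertical axis) of each of the 8 genes on each array (horizontal axis), with 1 point per gene and array. Grey bands hold the middle 90% of all genes on that array, and the dotted line parts arrays 1 to 3 from arrays 4 and 5. On array 1, INO1, ITR1, OPI3 and OPI1 lie below the band, at -1.16, -1.20, -1.48 and -0.80, and on arrays 4 and 5 every point lies inside it.

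The supply of inositol rests on INO1 and ITR1. INO1 (YJL153C, chromosome X in the array annotation) encodes inositol phosphate synthase, the enzyme that turns glucose phosphate into inositol phosphate, and is the standard reporter of this pathway. Its log2 ratios were -1.16 on array 1, 0.46 on array 3, 0.61 on array 4 and 0.63 on array 5, with no value on array 2. Array 1 stood apart: 1.4% of genes had a lower ratio there, while on arrays 3, 4 and 5 between 84.4% and 91.7% of genes did. Array 5 is the only array of INO1 with 20% in Cy5, so with the dye term it weighs as much as arrays 1, 3 and 4 together. The estimate was 0.30 ± 0.38 (SE, n = 4 arrays, limma adjusted p = 0.643) with a 95% interval from -0.70 to 1.30, which spans changes in both directions. Without array 1 it was 0.58 ± 0.12 (adjusted p = 0.129). With arrays 4 and 5 averaged into 1 value it was 0.62, which is just the mean of arrays 4 and 5. Arrays 1 and 3 share a dye orientation, so in that fit they set only the dye term of INO1. The SD of INO1 over its 4 arrays was 0.86, larger than that of 97.9% of genes, whose median SD was 0.22.

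ITR1 (YDR497C, chromosome IV) encodes the main inositol transporter of the plasma membrane. It was at -1.20, -0.43 and -0.55 on arrays 1, 2 and 3, and at 0.07 and 0.21 on arrays 4 and 5. The sign thus separated the sets of arrays with no overlap. Over the 5 arrays the estimate was -0.33 ± 0.20 (SE, limma adjusted p = 0.328).

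In the route to phosphatidylcholine, CHO1 (YER026C, chromosome V) encodes phosphatidylserine synthase, the first enzyme. Its ratios were -0.63, -0.21 and -0.37 on arrays 1, 2 and 3, all below 0. The deposited table has no value for it on the other arrays. In the scanner files its spot was flagged on array 4, and on array 5 it was unflagged, at 3.19 times background under the 20% label and 2.42 times under the 2% label, with a shifted log2 ratio of 0.12. With genes of 3 values admitted to the fit, CHO1 was at -0.36 ± 0.13 (SE, n = 3 arrays, limma adjusted p = 0.194), where 3.39% of 5688 genes passed.

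CHO2 (YGR157W, chromosome VII) encodes the methyltransferase that makes the first methylation of phosphatidylethanolamine. It was at -0.50, -0.98, -0.68, -0.22 and -0.02 on arrays 1 to 5, below 0 on every array but hardly so on the last. On array 2, 0.578% of genes had a lower ratio. CHO2 had the smallest p of the tested members (-0.48 ± 0.16, 1.4-fold, SE, n = 5) and still missed the threshold (limma adjusted p = 0.126, 95% interval from -0.88 to -0.09 before adjustment).

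OPI3 (YJR073C, chromosome X) encodes the methyltransferase that completes the following methylations to phosphatidylcholine. Its ratios were -1.48 on array 1 and 0.40, 0.13, 0.24 and 0.21 on arrays 2 to 5. Array 1 alone was negative, with 0.548% of genes lower there. The estimate of -0.03 ± 0.27 (SE, n = 5, limma adjusted p = 0.953) averages these opposite values, and without array 1 it was 0.25 ± 0.09 (adjusted p = 0.204). CHO2 and OPI3, which act one after the other in the same pathway, therefore had opposite signs on 4 of 5 arrays.

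The activator is a pair of basic helix-loop-helix proteins. INO2 (YDR123C, chromosome IV), which carries the activation domains of the pair, was at 0.17, 0.06, -0.18, 0.27 and 0.33 on arrays 1 to 5, with an estimate of 0.14 ± 0.10 (SE, n = 5, limma adjusted p = 0.401). INO4 (YOL108C, chromosome XV), its partner in binding, was at -0.19, -0.14, -0.02, 0.03 and -0.05. INO4 was the steadiest of the 8 genes: its SD of 0.09 was above that of 8.56% of genes, and its estimate of -0.08 ± 0.08 had a 95% interval from -0.28 to 0.12 (limma adjusted p = 0.547). Neither activator gene went beyond the middle 90% of all genes on any array.

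OPI1 (YHL020C, chromosome VIII), the repressor, was at -0.80, -0.39, -0.47, -0.02 and -0.04 on arrays 1 to 5. It was clearly below 0 on arrays 1 to 3 and near 0 on arrays 4 and 5. The estimate was -0.32 ± 0.14 (SE, n = 5, limma adjusted p = 0.185). In the deposited ratios CHO2 was likewise negative on all 5 arrays, while ITR1 was negative on arrays 1 to 3 and positive on arrays 4 and 5. INO2 and OPI3 were positive on 4 of 5 arrays and INO1 on 3 of its 4. These signs are not set against those of OPI1, whose scanner ratio on array 4 was 0.04 where the deposited ratio was -0.02.

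Because the ratios of arrays 4 and 5 and of arrays 1 to 3 are only loosely related over all genes, each set was also fitted alone. On arrays 4 and 5, INO1 (0.62 ± 0.05, 1.54-fold, adjusted p = 0.00219), INO2 (0.30 ± 0.05, adjusted p = 0.0125) and OPI3 (0.22 ± 0.05, adjusted p = 0.0251) were higher under the 20% label, which is 3 of 7 genes where 54.4% of 5371 genes passed in either direction and 27.9% as higher. On arrays 1 to 3, CHO2 (-0.79 ± 0.14, 1.72-fold, adjusted p = 0.00258), ITR1 (-0.65 ± 0.16, adjusted p = 0.0163) and OPI1 (-0.52 ± 0.14, adjusted p = 0.0274) were lower, which is 3 of 7 genes where 17.4% of 5164 passed in either direction and 5.96% as lower. INO1 has 2 values in that set and was not tested there. These fits keep 1 residual degree of freedom per gene and lean on the spread shared over genes, and the labels do not say whether arrays 4 and 5 carry the same RNA.

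**Figure D2:**
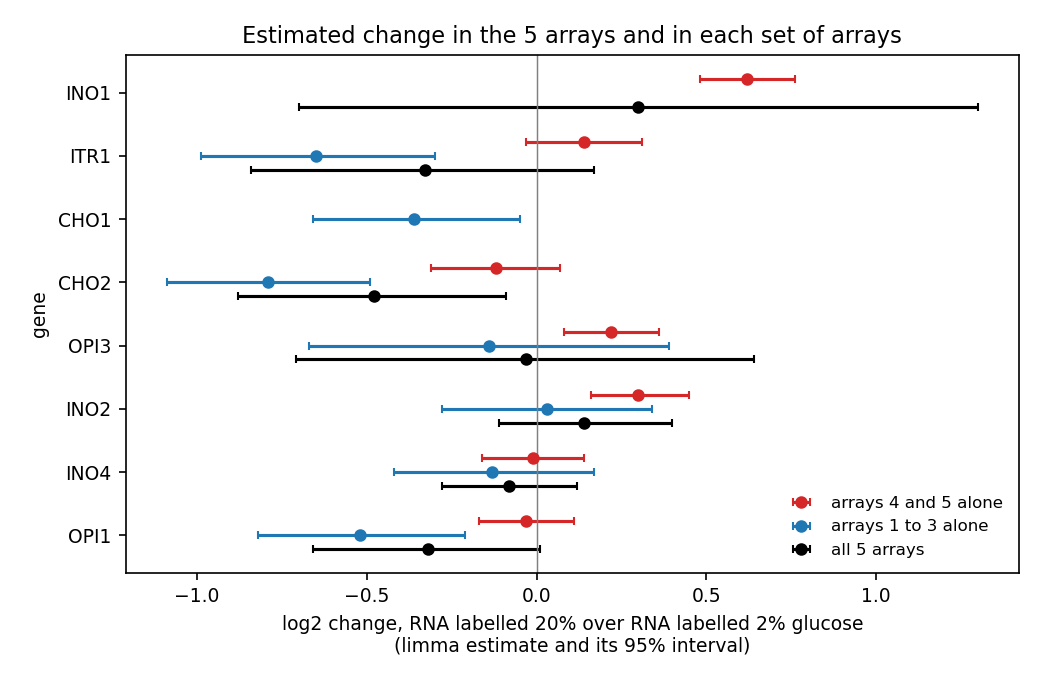
Limma estimates of the log2 change (horizontal axis, RNA labelled 20% over RNA labelled 2% glucose; bars are 95% intervals) for each gene (vertical axis) from arrays 4 and 5 alone, arrays 1 to 3 alone and all 5 arrays. INO1, INO2 and OPI3 lie above 0 on arrays 4 and 5 (0.62, 0.30 and 0.22), and CHO2, ITR1 and OPI1 below 0 on arrays 1 to 3 (-0.79, -0.65 and -0.52). CHO1 has an estimate from arrays 1 to 3 only, and INO1 has none from that set alone.

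All 7 tested genes had a higher ratio on arrays 4 and 5 than on arrays 1 to 3. The share of all genes with a higher ratio there was not counted, so this is not read as a trait of the 7. For INO4 the difference was 0.12 ± 0.13, and -0.04 when scanner ratios replace the table on arrays 4 and 5. For OPI3 it was 0.44 ± 0.51, and -0.04 without array 1 and -0.19 without array 4. The difference itself passed for 0 of the 7 genes in limma over the 5 arrays, where 12.8% of 5447 genes passed. At an unadjusted p under 0.05 there were 3, where 31.6% of all genes reached that level: ITR1 with a difference of 0.81 ± 0.22 (adjusted p = 0.0707), CHO2 with 0.62 ± 0.18 (adjusted p = 0.0787) and OPI1 with 0.50 ± 0.16 (adjusted p = 0.0982). ITR1 averaged 0.14 ± 0.10 on arrays 4 and 5 (SD, n = 2) and -0.72 ± 0.41 on arrays 1 to 3 (SD, n = 3). CHO2 averaged -0.12 ± 0.14 on arrays 4 and 5 (SD, n = 2) and -0.72 ± 0.24 on arrays 1 to 3 (SD, n = 3), and OPI1 -0.03 ± 0.02 and -0.56 ± 0.22 on the same sets. For INO1 the difference was 0.96 ± 0.66, with a 95% interval from -0.76 to 2.68. Without array 1 the difference passed for ITR1, CHO2, OPI1 and INO2, 4 of 6 genes tested, where 46.8% of all genes passed. Without the dye term it passed for ITR1, CHO2 and OPI1, where 21.7% of genes passed, and without array 3 for ITR1 of 6 genes tested, where 17.1% passed. When the fit also held a term for the set of arrays, the change itself passed for CHO2 (-0.43 ± 0.09, adjusted p = 0.0196) and OPI1 (-0.28 ± 0.08, adjusted p = 0.0472), both lower under the 20% label, where 29.7% of genes passed in either direction and 13.3% as lower.

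The scanner files of arrays 4 and 5 show the intensities behind these ratios. INO1 had a median intensity above background of 2300 under the 20% label and 1670 under the 2% label on array 4, and of 731 and 425 on array 5, where the dyes were exchanged. It was thus the brighter channel under the 20% label in both dye orientations. OPI3 (2147 against 1853 on array 4, 1347 against 959 on array 5) and INO2 (675 against 575, and 510 against 350) shared that order. So did ITR1, CHO1 and OPI1, by smaller steps on array 4 (450 against 416, 236 against 231 and 1344 against 1343). These are intensities before normalization, and the share of all spots with that order was not counted. The deposited ratios of OPI1 were slightly negative on both arrays (-0.02 and -0.04), while its shifted scanner ratios were 0.04 on array 4 and -0.01 on array 5. CHO2 was dimmer under the 20% label on array 4 (1549 against 1926) and brighter on array 5 (1458 against 1275). On array 5 all 8 spots were brighter in the 20% channel, and the shift of that array's scanner ratios lowers them by 0.29. The deposited ratios differ from the raw ones by other amounts. INO1 on array 5 was at 0.78 before the shift, at 0.49 after it and at 0.63 as deposited. The dimmest spot that entered the table was ITR1 on array 5, at 5.06 times background under the 20% label and 3.49 times under the 2% label. None of the 8 genes has a value of 10 or more in size in the deposited table, so the decimal repair of arrays 4 and 5 left them as they were.

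**Figure D3:**
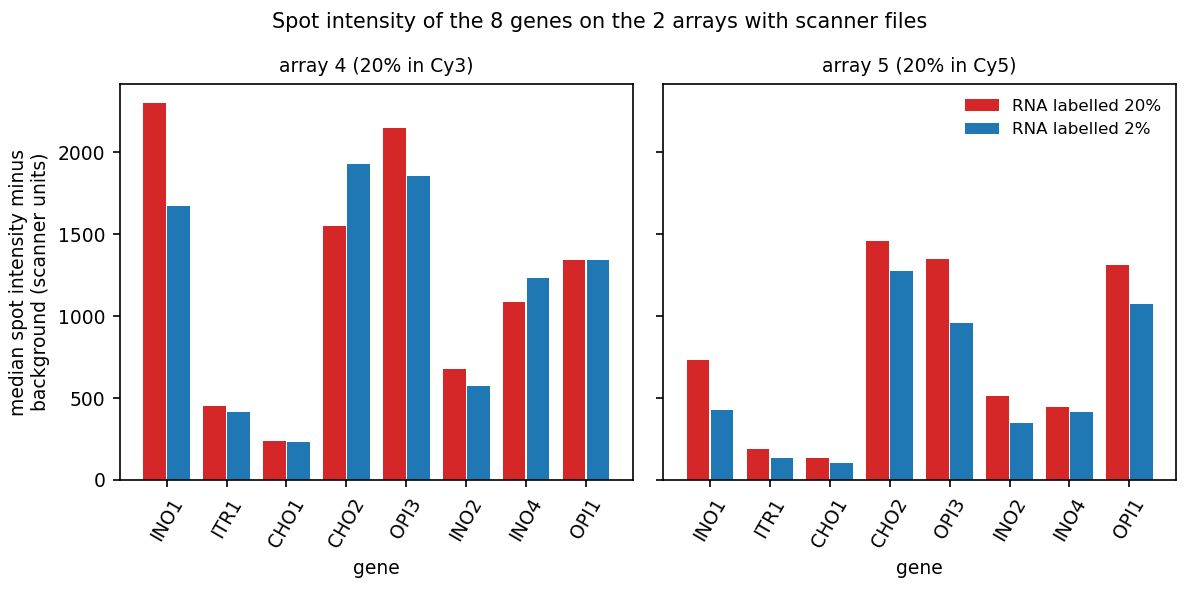
Median spot intensity minus local background (vertical axis, scanner units) of the 8 genes on arrays 4 and 5, with the RNA labelled 20% glucose left of the RNA labelled 2%. INO1 is brighter under the 20% label on both arrays (2300 against 1670, and 731 against 425). CHO2 changes order between the arrays, and spots of different genes are not to be compared in height.

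Other genes of these pathways were taken from 6 lists of 80 genes in all, of which 76 were tested: CRD1 and SUR1 had too few values, and PIS1 and TSC3 were not analysed here. Over the 5 arrays 2.24% of all genes passed as higher, 1.45% as lower, and 28.5% had an unadjusted p under 0.05. With a term for the set of arrays in the fit, 16.4% passed as higher and 13.3% as lower, and the counts from that fit are given beside the others. In phospholipid synthesis 1 of 20 tested genes was higher and 0 lower, with a median of 0.02, against 1 higher and 5 lower with the set term. The gene past the threshold over the 5 arrays was ALE1, a lysophospholipid acyltransferase, at 0.59, 0.52, 0.59, 0.28 and 0.51 on arrays 1 to 5 (0.50 ± 0.09, SE, adjusted p = 0.044). Of 12 further genes known as Ino2-Ino4 targets, 6 of which are also in the first list, 0 passed in limma and 5 had an unadjusted p under 0.05 (median -0.09, 6 above and 6 below 0), against 3 higher and 5 lower with the set term. The 3 with the smallest p had negative ratios on every array without passing: the ethanolamine phosphotransferase EPT1 (-0.45 ± 0.09, adjusted p = 0.054), the ethanolamine kinase EKI1 (-0.54 ± 0.11, adjusted p = 0.0577) and the CDP-diacylglycerol synthase CDS1 (-0.31 ± 0.09, adjusted p = 0.106). With the set term these 3 passed as lower (adjusted p = 0.00836, 0.012 and 0.024).

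Among 14 genes of inositol and choline uptake, release and recycling, 1 was higher and 0 lower (median 0.07), against 3 higher and 1 lower with the set term. GDE1, the phosphodiesterase that releases choline from glycerophosphocholine, was at 0.76, 0.72, 1.44, 0.74 and 0.92 on arrays 1 to 5 (0.90 ± 0.13, 1.86-fold, adjusted p = 0.0426). The following 3 genes were picked after their values were seen. GIT1, the permease for glycerophosphoinositol, had the highest estimate of the lists (1.66 ± 0.46, adjusted p = 0.0918), with 2.65 on array 1, 2.60 on arrays 4 and 5, and 0.11 and 0.63 on arrays 2 and 3. HNM1, the choline transporter and an Ino2-Ino4 target, was at -0.68, -0.63, -0.73, -0.23 and 0.08 on arrays 1 to 5 (-0.41 ± 0.14, adjusted p = 0.135). Its difference between arrays 4 and 5 and arrays 1 to 3 passed (0.58 ± 0.13, adjusted p = 0.0454). ACC1, the acetyl-CoA carboxylase and another such target, was at 1.40 and 1.44 on arrays 4 and 5 and at -0.29, 0.39 and -0.03 on arrays 1 to 3 (difference 1.34 ± 0.18, adjusted p = 0.0115). With the set term GIT1 (adjusted p = 0.0129) and ACC1 (adjusted p = 0.00393) passed as higher and HNM1 (adjusted p = 0.0144) as lower.

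The regulators of the inositol response had a median of 0.00, with 0 of 9 genes past the threshold in limma, 2 at an unadjusted p under 0.05, and 1 higher and 1 lower with the set term. UME6, a DNA-binding repressor, was at -0.29 ± 0.08 (adjusted p = 0.0854), SNF1, the kinase needed for INO1 expression, at 0.23 ± 0.08 (adjusted p = 0.138), and the histone deacetylase RPD3 at -0.19 ± 0.08 (adjusted p = 0.199). The 2 past the threshold with the set term were UME6 (adjusted p = 0.0284) and SNF1 (adjusted p = 0.0472). Of 16 kinases, lipases and phosphatases of phosphoinositides and inositol phosphates 0 passed in limma and 2 had an unadjusted p under 0.05 (median 0.08), against 4 higher and 1 lower with the set term. The smallest p there were those of the phosphatases INP54 (0.40 ± 0.12, 4 arrays, adjusted p = 0.118) and SAC1 (0.29 ± 0.10, adjusted p = 0.137) and of the lipid kinase FAB1 (0.23 ± 0.10, adjusted p = 0.191), of which SAC1 (adjusted p = 0.0224) and FAB1 (adjusted p = 0.0327) passed with the set term. In inositol sphingolipid synthesis 0 of 13 genes were higher and 1 was lower (median -0.08), against 1 higher and 5 lower with the set term. The gene past the threshold over the 5 arrays was CSH1, a subunit of mannosyl inositol phosphorylceramide synthase, with ratios between -1.28 and -0.45 on the 5 arrays (-0.86 ± 0.15, 1.81-fold, adjusted p = 0.044).

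**Figure D4:**
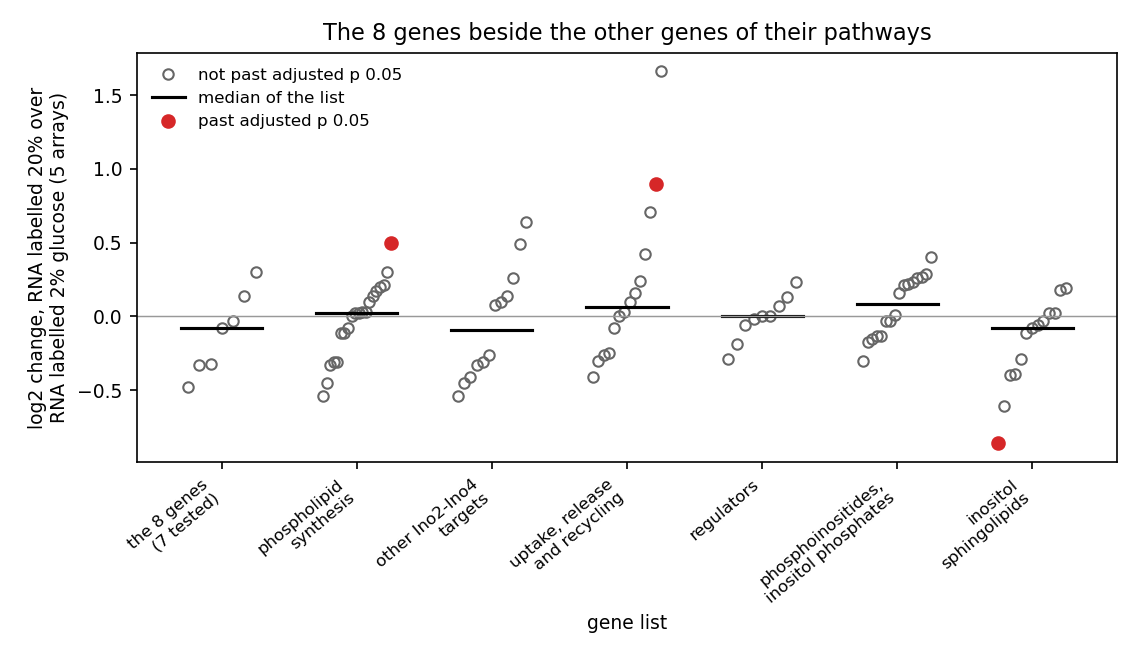
Limma estimates of the log2 change over the 5 arrays (vertical axis, RNA labelled 20% over RNA labelled 2% glucose) for the tested members of the 8 genes and of each pathway list (horizontal axis). Each point is 1 gene, filled where it passed the adjusted p of 0.05, and bars are list medians, which lie between -0.09 and 0.08. ALE1 (0.50), GDE1 (0.90) and CSH1 (-0.86) are the filled points.

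The genes closest to INO1, by the root mean square difference over its 4 arrays among 4901 genes, were ERJ5 (0.10), SLK19 (0.19) and WSC4 (0.22). ERJ5 encodes a co-chaperone of the endoplasmic reticulum and was at -1.06, 0.32, 0.63 and 0.51 on arrays 1, 3, 4 and 5. SLK19, a kinetochore and spindle protein, was at -1.22, 0.43, 0.96 and 0.49, and WSC4, a wall stress sensor, at -1.25, 0.31, 0.38 and 0.30. Their low values on array 1 follow from this choice, as the 3 were picked for ratios near those of INO1. Among the other 6 members with values on those arrays OPI3 was the closest, in place 18 (0.36), followed by ITR1 in place 394 (0.61), while CHO2 was in place 2661 (0.84).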

How the data were processed

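Per the labels, 5 two-colour arrays compared aminoallyl-labelled RNA of both media. The deposited table holds log2 ratios that the authors normalized within arrays. Their software is not named in the labels. Deposited scanner files of arrays 4 and 5 give, per the file headers, the intensity of spot and background, log2 ratios, and a flag as a quality score. Values of 10 or more in size on these arrays (258 and 262) were divided by 10, after which the table correlated at 0.991 and -0.964 with the scanner's Cy5 over Cy3 ratio. By the dye labels the table is thus 2% over 20%, and all values were multiplied by -1. For arrays 1 to 3, scale and direction could not be checked against a scanner file and were taken as the same. Their ratios correlate with those of arrays 4 and 5 at 0.26 to 0.37. GPD1, GPP2, HXT1 and HXT2 each have the same sign on every array. The column medians after this lie between -0.0105 and -0.0021.

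Ratios were fitted with limma 3.58.1 in R 4.3.3 (lmFit, eBayes; dye term; 5447 ORFs with at least 4 values; 3 residual degrees of freedom with 5 values), two-sided, with Benjamini-Hochberg adjustment over all genes, and the procedure was tested on simulated data. Median spot over background was 10.1 to 15.9 on arrays 4 and 5, and is not known for arrays 1 to 3, which have no scanner file. The number of arrays limits the precision. Members and lists were chosen with earlier results of these data known. Named genes are the 8 members, GPD1, GPP2, HXT1 and HXT2, all genes of a list past the threshold or else its 3 smallest p, and the 3 genes closest to INO1; GIT1, HNM1 and ACC1 fall outside this rule and were named after their values were seen. GPP2, another gene of glycerol synthesis, lay between -3.49 and -1.33. Names come from a RefSeq table (R64), which matched 5705 of 6205 ORFs; no coordinates are given because the files name no build. A planned search of promoters for the Ino2-Ino4 element was not made, as no promoter sequence was used here.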

Additional observations from a re-analysis of the deposited data

Results flagged for a closer look

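On array 1 the ratio of INO1, at -1.16, stood apart from its other 3 values, with a gap to the nearest of 0.902 of the whole range. OPI3 on the same array, at -1.48, stood apart from its other 4 values by 0.857 of the range. Among independent values of 1 spread, chance sets 1 apart in this way in about 5% of groups, and 7 genes were looked at. The arrays fall in loosely related sets, so that rate need not hold here. The share of all genes set apart, or lowest, on array 1 was not counted. Array 1 also held the lowest value of ITR1, CHO1, INO4 and OPI1. Its ratios correlated at 0.60 and 0.62 over genes with those of arrays 2 and 3, which correlated at 0.86 with each other. The part of array 1 as a library in these values was not tested.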

How the results depend on the processing

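Of the 7 genes tested, CHO2, OPI1, ITR1, INO2 and INO4 kept their sign when any 1 array was left out (CHO2 -0.72 to -0.24, OPI1 -0.43 to -0.23, ITR1 -0.49 to -0.17, INO2 0.07 to 0.21, INO4 -0.10 to -0.05). INO1 ranged from -0.03 to 0.58 and OPI3 from -0.19 to 0.25, with a change of sign (INO1 without array 5 has 1 dye orientation left and no dye term). Calls among the members tested in limma were 0 in each of these fits, with 0 to 3 at an unadjusted p under 0.05, while calls over all genes ranged from 0 to 103; the fit without array 3, with 0, had 1096 at an unadjusted p under 0.05. With a set term 2 members passed (CHO2 -0.43, OPI1 -0.28) and OPI3 was at 0.00. On arrays 4 and 5 alone 3 passed (INO1 0.62, INO2 0.30, OPI3 0.22) while ITR1 was at 0.14, and on arrays 1 to 3 alone 3 passed (ITR1 -0.65, CHO2 -0.79, OPI1 -0.52). With the dye labels exchanged the values were -0.30 (INO1), 0.33 (ITR1), 0.48 (CHO2), 0.03 (OPI3), -0.14 (INO2), 0.08 (INO4) and 0.32 (OPI1). Calls over all genes, 201 in the report, were 919 without the dye term, 1618 with the set term, 1 with values as deposited, 129 with scanner ratios, 901 on arrays 1 to 3, 2924 on arrays 4 and 5, and 5 with arrays 4 and 5 averaged, a choice made after seeing the data. INO1, at 0.30 in the report, was at 0.62 with that average, where its estimate is by design the mean of arrays 4 and 5. It was at 0.14 with the set term and at 0.14 without the dye term. Without the dye term the estimate is the plain mean of its 4 arrays, while with that term array 5 weighs as much as arrays 1, 3 and 4 together. The cause of the other changes was not tested. Normexp with an offset of 50 and loess, scale normalization, leaving out dim spots and the filters on missing values changed no sign or call of a tested member.

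The difference between arrays 4 and 5 and arrays 1 to 3, passed by 0 of the 7 genes, passed for 3 without the dye term (ITR1 0.86, CHO2 0.60, OPI1 0.52). With 1 array left out it passed for 0 to 4 (ITR1 0.63 to 0.95, CHO2 0.37 to 0.96, OPI1 0.35 to 0.62, INO2 0.19 to 0.36, OPI3 -0.19 to 0.92). For INO4 it was -0.04 with scanner ratios. Over all genes it passed for 696, for 1183 without the dye term, and for 96 to 2225 with 1 array left out. Of these fits with 1 array left out, INO1 could be fitted only in the one without array 2, where it has no value. Each ratio already pairs the 2 media within its array, and the arrays carry distinct numbers, so no block by replicate number was fitted.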
